A study of Homo sapiens with 6 samples.

Results

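The genes of 9 ADP-ribosyltransferases and of DTX3L were followed in HT1080 cells before and after interferon β (IFNβ). The genes were PARP1, PARP2, PARP8, PARP9, PARP10, PARP11, PARP12, PARP14, TIPARP and DTX3L. They were picked by name, with earlier results of these data known, and are 10 of the 62710 genes in the table. HT1080 is an established human fibrosarcoma line. RNA was sequenced from 3 libraries of untreated cells and 3 libraries of cells given IFNβ at 20 ng/mL for 24 h, and no other agent or genetic change separated the groups. The labels and the study's culture methods name the cytokine given to HT1080 cells as human IFNβ, whereas its RNA sequencing methods name the mouse protein. The study states in general that its cell culture results came from independent replicates, but the labels do not say so of these libraries, so the p-values may measure technical spread only.

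PARP enzymes take ADP-ribose from NAD+ and attach it to proteins. PARP1 and PARP2 are switched on by DNA breaks and build long chains that recruit repair proteins, whereas most other members of the family attach single units. Several of those sit among the interferon-stimulated genes. Type I interferon signals through JAK1 and TYK2 to a complex that includes STAT2 and IRF9 (ISGF3), which binds an element made of repeated GAAA blocks in the promoters of its targets. DTX3L is a ubiquitin ligase of the Deltex family that works as a partner of PARP9, and the genes of this pair lie head to head on chromosome 3.

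The values are FPKM (fragments per kilobase of gene scaled to the library's fragments), levels per length that can be compared between genes as far as the lengths the authors used are right, which is in doubt for PARP1 (its length is described with the order of the genes). The libraries had been divided by 22848104 to 32915500 fragments, with a median of 29672197 in the untreated group and 28893663 in the IFNβ group. A gene of 1 kb was therefore worth 0.0304 to 0.0438 FPKM per fragment. The summed level of 5 mesenchymal markers was 828 to 879 FPKM in untreated and 861 to 892 FPKM in IFNβ-treated libraries. Single markers in it moved in opposite directions without overlap, VIM from 382 to 426 FPKM down to 320 to 334 FPKM, FN1 from 84.5 to 92.5 FPKM up to 121 to 131 FPKM and SPARC from 261 to 277 FPKM up to 321 to 344 FPKM. The part of these shifts in the results was not tested. The summed level of 3 epithelial markers was 0.243 to 0.445 FPKM in untreated and 0.538 to 0.646 FPKM in IFNβ-treated libraries, and EPCAM was listed at 0 in every untreated library. That of 5 leukocyte markers was 0.0916 to 0.223 and 0.114 to 0.349 FPKM, and that of 3 endothelial markers 0.212 to 0.357 and 0.343 to 0.441 FPKM. The markers of other cell types were thus near 0 in both groups.

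Stretches at the start sites of DTX3L, PARP9, PARP14 and PARP12, which were among the genes that rose together, are shown first. RefSeq (GRCh38.p14) gave windows from 250 bases before to 50 bases after the start site for 9 of the 10 genes, all but PARP10, 14 windows in all. They were searched on both strands for GAAA, any 2 bases and GAAA again (the GAAA pair, the core of the ISGF3 element), for TTCNNNGAA, the palindrome bound by STAT dimers, and for TNGCGTG, the core bound by the aryl hydrocarbon receptor. The motifs do not overlap one another in these windows. The bases below run 5′ to 3′ on the strand given, and the capitals mark the match to the GAAA pair. The first stretch is shared by DTX3L and PARP9, is written on the strand of DTX3L and begins beside the nearest PARP9 start site. The PARP1 stretch holds no match and is printed for comparison, since PARP1 fell.
DTX3L and PARP9, chr3:122564301-122564347, plus strand: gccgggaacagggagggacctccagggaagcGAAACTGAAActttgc
PARP14, chr3:122680739-122680838, plus strand: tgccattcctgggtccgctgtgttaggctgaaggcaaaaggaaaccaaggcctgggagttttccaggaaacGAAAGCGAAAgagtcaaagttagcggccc
PARP12, chr7:140062952-140063051, minus strand: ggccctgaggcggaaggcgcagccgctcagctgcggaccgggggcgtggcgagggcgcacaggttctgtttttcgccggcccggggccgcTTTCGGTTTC
PARP1, chr1:226408094-226408193, minus strand: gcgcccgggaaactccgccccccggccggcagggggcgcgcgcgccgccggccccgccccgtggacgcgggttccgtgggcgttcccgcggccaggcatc

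DTX3L, PARP14, PARP12 and 1 of the 2 windows of PARP9 had a GAAA pair, the other PARP9 window, whose start site lies 446 bases from that of DTX3L, had none, and the windows of PARP1, PARP2, PARP8, PARP11 and TIPARP had none. Of all 35116 windows in the RefSeq table, 3.57% held this motif, as did 4.38% of its 27305 genes. DTX3L and PARP9 share the same 10 bases at chr3:122564332-122564341. The first base of this match lies 6 bases before the DTX3L start site (position -6) and 37 bases separate that start from the nearest PARP9 start. In PARP14 the match begins at position -29. In PARP12 it lies on the opposite strand and its first printed base is at position -10. TTCNNNGAA was found in PARP14 at position -40 and in PARP2 at position -154, against 7.66% of all windows. TNGCGTG was found in none of the 14 windows, TIPARP's included, against 5.51% of all windows. A match describes letters in these windows and not binding.

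Of the 10 genes, 8 were higher and 1 was lower after IFNβ at an adjusted p under 0.05 (limma, Benjamini-Hochberg over 20716 genes), and PARP2 did not pass. The count of higher genes was 7, without PARP11, when the replicate number was added as a block or some single libraries were left out. Across all genes tested, 15.2% passed as higher and 17.5% as lower. The balance of these counts, 3153 higher and 3625 lower, depended on scaling. It was 3581 higher and 3047 lower after rescaling by median ratio, and 2660 higher and 4121 lower after quantile normalization. Of the genes, 5, namely PARP9, PARP14, PARP10, DTX3L and PARP12, were DEGs, defined as passing the test with a log2 fold change of at least 1 in size. The share of all genes tested that were DEGs was 4.22%, with 3.49% DEGs that rose and 0.739% that fell. The count behind this share, 875, was 304 with a pseudocount of 1 and 425 among genes with a mean of at least 1 FPKM. The log2 fold change over the 10 genes ran from -0.27 to 4.30, with a median of 1.81, beside a median of 0.00017 over all genes tested. Since the 10 genes were chosen with earlier results known, these comparisons with all genes are descriptive only. The 2 DNA repair members had a median of -0.18 and the other 8 a median of 2.99.

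**Figure D1:**
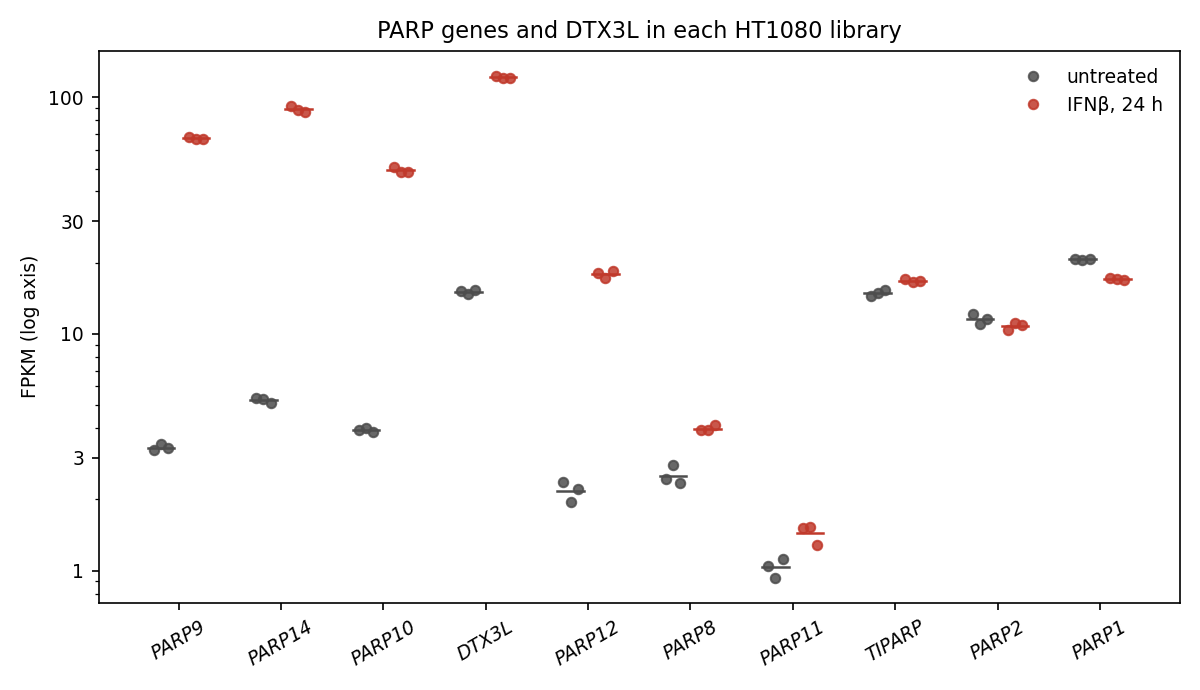
FPKM of the 10 genes (log axis) in each untreated and IFNβ-treated library, with 1 point per library. The groups stand far apart for PARP9, PARP14, PARP10, DTX3L and PARP12, lie close together for TIPARP, PARP11 and PARP8, and overlap for PARP2.

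PARP9 and DTX3L form the complex that joins a macrodomain protein to a ubiquitin ligase. PARP9 lies at chr3:122527924-122564577 on the minus strand (GENCODE release 29, GRCh38), and DTX3L at chr3:122564238-122575203 on the plus strand. PARP9 was at 3.23, 3.41 and 3.30 FPKM in the untreated libraries and at 68.0, 66.7 and 66.5 FPKM in the IFNβ-treated libraries. The lowest treated library was thus far above the highest untreated one, and the mean rose 20.2-fold, from 3.31 ± 0.0914 to 67.1 ± 0.811 FPKM (mean ± S.D. of 3 libraries). A log2 fold change of 4.30 (SE 0.03, adjusted p = 2.8e-09, limma) ranked 50 among the rises of all genes tested. These levels rested on 660 to 970 fragments per untreated library and 14901 to 18716 per IFNβ-treated library.

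DTX3L started higher and rose by a smaller factor. It was at 15.1, 14.7 and 15.3 FPKM untreated and at 123, 121 and 121 FPKM after IFNβ, with no overlap. The mean rose 8.07-fold, from 15.1 ± 0.296 to 122 ± 1.37 FPKM, and the log2 fold change was 3.005 (SE 0.02, adjusted p = 4.1e-09, limma). DTX3L gained 107 FPKM, more than any of the other 9 genes, although PARP9, PARP14 and PARP10 rose by larger factors. The ratio of means was also slightly larger for PARP12, at 8.21. By level among all genes of the table, DTX3L moved from rank 3047 to rank 220 and PARP9 from rank 8286 to rank 540.

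The ratio of PARP9 to DTX3L was compared within each library, since the proteins act as partners. It was 0.213, 0.231 and 0.215 in untreated cells and 0.552, 0.553 and 0.549 after IFNβ. DTX3L thus had the higher level per length in every library, and the ratio moved closer to 1 with treatment, from 0.220 ± 0.00990 to 0.551 ± 0.00196 (S.D., n = 3). On the log2(FPKM + 0.1) scale the ratio rose by 1.29. The groups did not overlap, and the exact two-sided permutation p was 0.10, the smallest that 3 against 3 libraries allow. The value stayed at 0.10 after adjustment over the 3 ratios compared. The exons of the pair overlap by 217 bases on opposite strands, 2.43% of the exon length of PARP9 and 3.70% of that of DTX3L. Whether counting used strand is not given in the sources used here, so fragments from that stretch cannot be assigned to a gene.

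PARP14 is a large protein with several macrodomains, which bind ADP-ribose, and a transferase domain that adds single units. The gene lies beyond DTX3L on the same chromosome, at chr3:122680618-122730840 on the plus strand. PARP14 was at 5.38, 5.30 and 5.13 FPKM untreated and at 91.7, 88.7 and 86.8 FPKM after IFNβ. All treated libraries lay above all untreated ones, and the mean rose 16.9-fold, from 5.27 ± 0.131 to 89.1 ± 2.46 FPKM. The log2 fold change was 4.05 (SE 0.03, adjusted p = 4.6e-09, limma). The ratio of PARP14 to PARP9 was 1.67, 1.55 and 1.56 in untreated libraries and 1.35, 1.33 and 1.31 in IFNβ-treated ones. PARP9 therefore gained on PARP14, and the ratio fell by 0.25 on the log2(FPKM + 0.1) scale without overlap between groups (exact two-sided permutation p = 0.10, adjusted 0.10). With a pseudocount of 1 the fall was smaller, at 0.14.

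**Figure D2:**
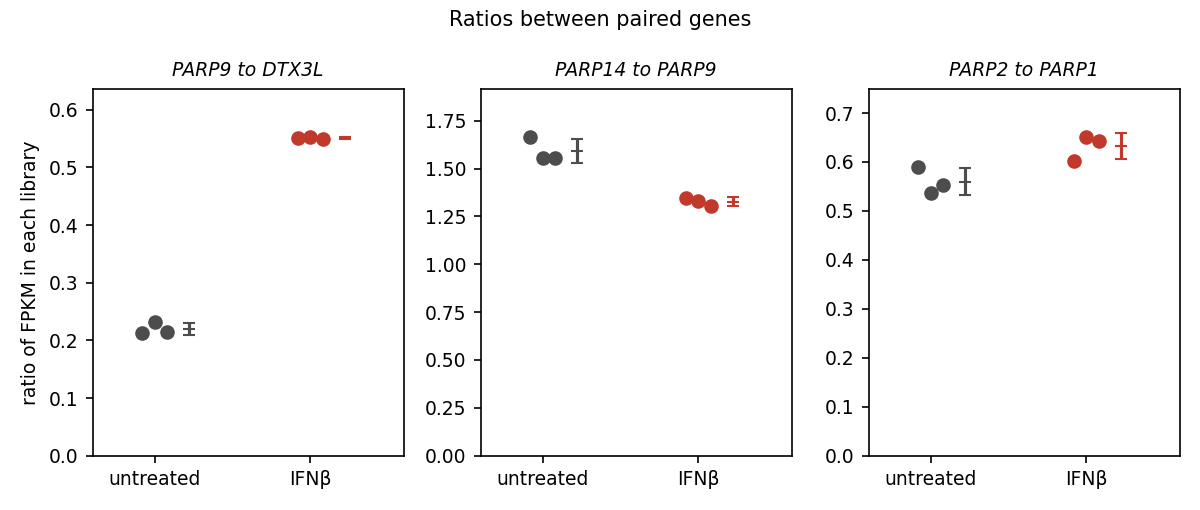
FPKM ratios in each library for PARP9 to DTX3L, PARP14 to PARP9 and PARP2 to PARP1, in untreated and IFNβ-treated cells, with points for libraries and bars for the mean ± S.D. (n = 3). The PARP9 to DTX3L ratio goes from 0.220 to 0.551, whereas the other ratios move less, from 1.59 to 1.33 and, with the length the authors used for PARP1, from 0.560 to 0.632.

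PARP10 and PARP12 are transferases of the same single-unit kind on other chromosomes. PARP10 also carries RNA recognition and ubiquitin-binding motifs, and PARP12 carries CCCH zinc fingers and belongs to the branch of the family that holds the antiviral protein ZC3HAV1. PARP10 (chr8:143977153-144012772, minus strand) was at 3.93, 4.02 and 3.86 FPKM untreated and at 50.6, 48.4 and 48.3 FPKM after IFNβ. The libraries of each group lay close together, and the mean rose 12.5-fold, from 3.94 ± 0.0800 to 49.1 ± 1.31 FPKM, with a log2 fold change of 3.61 (SE 0.03, adjusted p = 6.9e-09, limma). PARP12 (chr7:140023744-140063721, minus strand) was at 2.37, 1.95 and 2.22 FPKM untreated and at 18.1, 17.2 and 18.4 FPKM after IFNβ. Its mean rose 8.21-fold, from 2.18 ± 0.211 to 17.9 ± 0.644 FPKM, and its log2 fold change was 2.98 (SE 0.07, adjusted p = 1e-06, limma). The fold of PARP12 was close to that of DTX3L, with 95% intervals of 2.81 to 3.16 and 2.95 to 3.06 on the log2 scale. The exons of PARP10 overlap those of GRINA by 324 bases on the opposite strand, 5.37% of the exon length of PARP10. GRINA was at 41.4 FPKM untreated and 82.0 FPKM after IFNβ, far above PARP10 in untreated cells. If strand was not used in counting, fragments of GRINA could make up part of the PARP10 level, above all the untreated one, so this level and the 12.5-fold rise carry that uncertainty.

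The remaining transferases of this kind changed by far less. PARP8, whose targets are little described, lies at chr5:50665899-50846522 on the plus strand. It was at 2.44, 2.79 and 2.34 FPKM untreated and at 3.91, 3.91 and 4.11 FPKM after IFNβ. The groups did not overlap, and the mean rose 1.58-fold with a log2 fold change of 0.64 (SE 0.07, 95% interval 0.47 to 0.82, adjusted p = 9.5e-04, limma). TIPARP, which acts in a feedback loop on the aryl hydrocarbon receptor that induces it, lies at chr3:156673235-156706770 on the plus strand, far from the cluster of PARP9, DTX3L and PARP14. It was at 14.49, 14.96 and 15.35 FPKM untreated and at 17.09, 16.55 and 16.70 FPKM after IFNβ. Every treated library was above every untreated one, yet the mean rose only 1.12-fold (log2 fold change 0.17, SE 0.03, 95% interval 0.098 to 0.24, adjusted p = 0.0053, limma).

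PARP11, a transferase with a WWE domain, was the lowest of the 10 genes in both groups. The gene lies at chr12:3791047-3873448 on the minus strand. It was at 1.04, 0.935 and 1.12 FPKM untreated and at 1.51, 1.53 and 1.29 FPKM after IFNβ, resting on 148 to 228 and 231 to 289 fragments per library. The mean rose 1.40-fold (log2 fold change 0.45, SE 0.11, 95% interval 0.19 to 0.71, adjusted p = 0.020, limma). This call rested on single libraries. Without untreated library 2 the log2 fold change was 0.38 (adjusted p = 0.058, limma), without IFNβ library 1 it was 0.41 (adjusted p = 0.070), and without IFNβ library 2 it was 0.41 (adjusted p = 0.072). With the replicate number added to the fit as a block it stayed at 0.45 but missed the threshold (adjusted p = 0.066, limma). A pseudocount of 1 lowered it to 0.27, which still passed (adjusted p = 0.022, limma).

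Neither of the members that answer to DNA breaks passed as higher. PARP1, the most active producer of ADP-ribose chains after DNA damage, lies at chr1:226360691-226408079 on the minus strand. It was at 20.68, 20.47 and 20.81 FPKM untreated and at 17.22, 17.11 and 16.96 FPKM after IFNβ. The groups did not overlap, and PARP1 fell by 0.27 on the log2 scale (SE 0.02, 95% interval -0.32 to -0.22, adjusted p = 1.3e-04, limma), which left 0.828 of its untreated level. In bulk RNA, fewer cells that express a gene and less of its RNA per cell cannot be told apart. PARP2, which shares the break-sensing role of PARP1, lies at chr14:20343582-20357905 on the plus strand. It was at 12.2, 11.0 and 11.5 FPKM untreated and at 10.4, 11.1 and 10.9 FPKM after IFNβ, and these ranges overlapped. Its log2 fold change of -0.095 (SE 0.05, 95% interval -0.21 to 0.019, adjusted p = 0.18, limma) leaves room for a fall of nearly the size seen in PARP1. This value depended on single libraries and on scaling. It was -0.057 without untreated library 1, -0.13 without untreated library 2 and -0.059 after rescaling by median ratio. The ratio of PARP2 to PARP1 was 0.589, 0.536 and 0.553 in untreated libraries and 0.603, 0.651 and 0.644 after IFNβ, without overlap (exact two-sided permutation p = 0.10, adjusted 0.10). The level of this ratio, though not its relative change, depends on the length taken for PARP1. With the same fragments divided by GENCODE release 29 lengths its mean would be 0.216 untreated and 0.244 after IFNβ.

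In all, 8 genes were higher in every IFNβ-treated library than in any untreated one, and PARP1 was lower in every one. Among all genes tested, 46.6% showed no overlap, 22.3% in the upward and 24.3% in the downward direction, so the lack of overlap alone is common in these libraries.

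The order of the genes by level changed. In untreated cells it ran PARP1, DTX3L, TIPARP, PARP2, PARP14, PARP10, PARP9, PARP8, PARP12 and PARP11. DTX3L and TIPARP did not differ beyond the spread of their libraries there, nor did PARP8 and PARP12. After IFNβ it ran DTX3L, PARP14, PARP9, PARP10, PARP12, PARP1, TIPARP, PARP2, PARP8 and PARP11. PARP12 and PARP1 overlapped in that order, as did PARP1 and TIPARP. The summed level of the 10 genes rose from 80.5 ± 0.797 to 395 ± 5.91 FPKM. The 5 DEGs made up 37.0% ± 0.151 of this sum in untreated cells and 87.3% ± 0.189 after IFNβ. These 5 were picked for their rise in the same libraries, so the rise of their share followed from that choice. The share of PARP1 and PARP2 together went from 40.0% ± 0.560 to 7.07% ± 0.177 (S.D., n = 3), while PARP1 kept 0.828 of its own level and PARP2 did not pass the test.

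**Figure D3:**
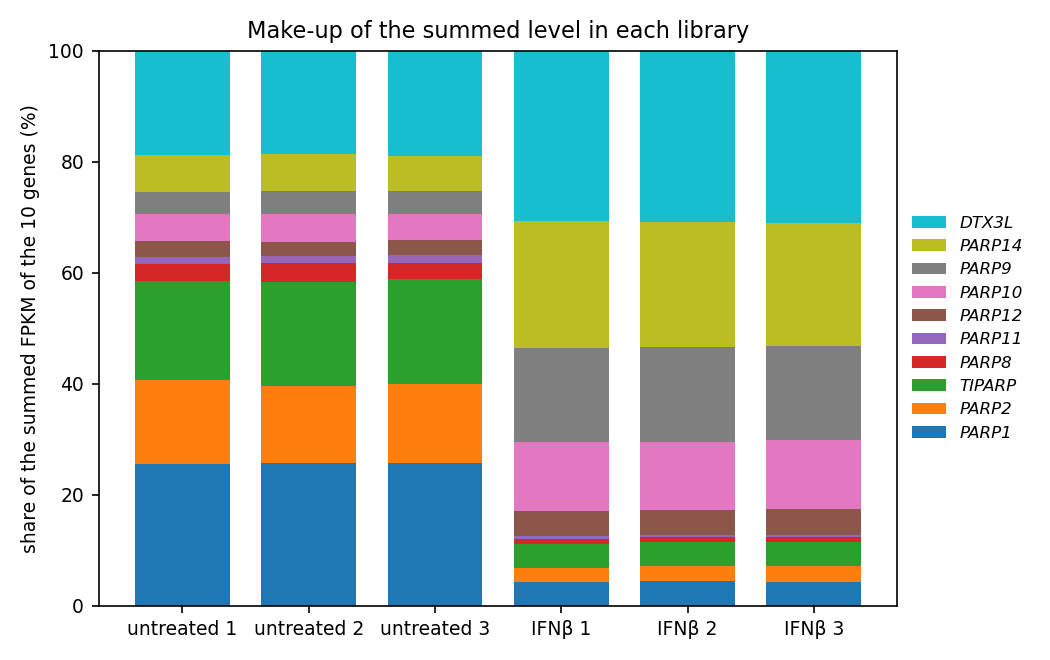
Share (%) of each gene in the summed FPKM of the 10 genes in each of the 6 libraries, as stacked bars. PARP1 takes 25.7% of the untreated sum and 4.33% of the IFNβ sum, whereas DTX3L goes from 18.7% to 30.8% and PARP14 from 6.55% to 22.5%.

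The place of PARP1 after IFNβ depends on its length, whereas in untreated cells it stood highest with either length given here. The shortest length at which the FPKM gave whole fragments for PARP1 was 18399 bases, whereas its exons in GENCODE release 29 cover 7169 bases. Dividing the same fragments by the release 29 lengths would put PARP1 at 53.0 FPKM untreated and 43.9 FPKM after IFNβ. Fragments were not recounted on the release 29 exons, so any that lie outside them make this PARP1 level too high. On these values PARP1 would hold 47.6% and 10.6% of the sum and stand above TIPARP and PARP12, in that order, after IFNβ, although TIPARP and PARP12 would overlap. PARP1 and PARP2 together would hold 57.9% and 13.2%, and the 5 DEGs 26.2% and 81.7%. The fold change of a gene does not depend on this length.

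The 7 tested genes of the other PARP family members moved less than the 5 DEGs (8 were listed). Of these, 5 were higher and 1 was lower at an adjusted p under 0.05, none was a DEG, and the median log2 fold change was 0.24, beside 32.7% of all genes passing in either direction. ZC3HAV1, the zinc finger antiviral protein without transferase activity, was at 12.2 ± 0.362 FPKM untreated and 23.7 ± 0.378 FPKM after IFNβ (log2 fold change 0.95, adjusted p = 3e-06, limma). PARP3, which acts at DNA breaks beside PARP1 and PARP2, rose from 8.62 ± 0.165 to 15.2 ± 0.0984 FPKM (0.81, adjusted p = 3.1e-06, limma). PARP4, the transferase of the vault particle, rose from 29.02 ± 0.374 to 44.97 ± 0.250 FPKM (0.63, adjusted p = 2.2e-06, limma). The log2 fold change was 0.24 for PARP6 and 0.19 for TNKS2, both of which rose, and -0.20 for PARP16, which fell, while TNKS at -0.056 did not pass (adjusted p = 0.25, limma). ZC3HAV1 and PARP3 thus had larger log2 fold changes than PARP8 (0.64), PARP11 (0.45) and TIPARP (0.17). PARP4 and the remaining tested family members had smaller ones than PARP8. These differences between genes were not tested. PARP15, which lies between DTX3L and PARP14, was under the level needed for testing, at 1, 0 and 3 fragments in untreated libraries and at 9, 12 and 6 fragments in IFNβ-treated ones.

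The genes that remove ADP-ribose are set beside all genes tested, of which 15.2% were higher and 17.5% lower. Of 5 tested, limma called 1 higher and none lower, also at an unadjusted p under 0.05 and with voom on the fragments recovered from the FPKM, and the median log2 fold change was -0.098. ADPRS, which cleaves the bond to serine, was at 33.1 FPKM untreated and 36.7 FPKM after IFNβ (log2 fold change 0.15, adjusted p = 0.022, limma). PARG, which degrades the chains, was at 12.97 and 12.12 FPKM (-0.098, adjusted p = 0.13, limma), and MACROD1, MACROD2 and OARD1 did not pass either. Of 8 tested genes that supply NAD+, the substrate of the family, 2 were higher, beside 15.2% of all genes, and the median was 0.15. NMRK1, a kinase that feeds nicotinamide riboside into NAD+, rose from 1.53 ± 0.149 to 2.66 ± 0.0384 FPKM (0.76, adjusted p = 6.7e-04, limma). NAMPT, the rate-limiting enzyme of NAD+ salvage, went from 7.21 to 9.47 FPKM (0.39, adjusted p = 1.5e-04, limma).

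**Figure D4:**
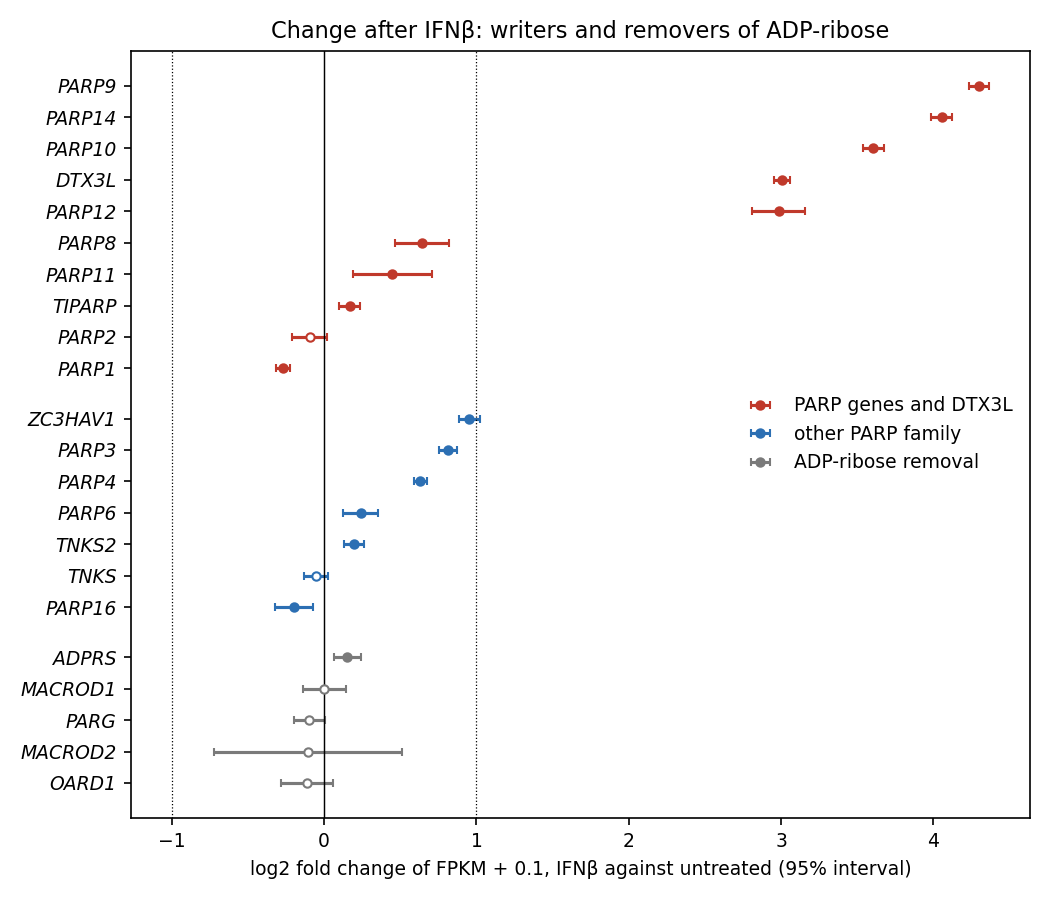
Log2 fold change (IFNβ against untreated, with 95% intervals) of the 10 genes, the other PARP family genes and the genes that remove ADP-ribose. Filled points passed an adjusted p of 0.05, open points did not, and dotted lines mark a log2 fold change of 1 in either direction. PARP9 is the highest at 4.30, ZC3HAV1 the highest of the other family members at 0.95, and the removing genes lie near 0.

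RNA of the genes for proteins that act with PARP1 and PARP2 in repair was also measured. Of 7 repair partners tested, limma called 1 higher and none lower, at an unadjusted p under 0.05 it was 2 and none, with voom 1 and none, and the median log2 fold change was -0.023. This is near the 15.2% of all genes called higher. XRCC1, the scaffold of single-strand break repair, rose from 8.73 ± 0.732 to 12.5 ± 0.931 FPKM (log2 fold change 0.51, adjusted p = 0.0031, limma), although its exons overlap those of several other gene models. Of the Deltex relatives of DTX3L, 3 were tested. DTX4 was lower (-0.34, adjusted p = 0.048, limma), and DTX3 did not pass. DTX2 (0.16) was higher only at an unadjusted p under 0.05 and with voom.

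The signalling genes upstream of the ISGF3 element gave 4 higher and 1 lower of 6 tested, with a median of 0.35, beside 15.2% higher and 17.5% lower among all genes. STAT2 rose from 3.88 ± 0.0940 to 40.6 ± 0.781 FPKM (log2 fold change 3.35, adjusted p = 8.5e-09, limma). The log2 rises of PARP9, PARP14 and PARP10 were thus larger than that of STAT2, and those of DTX3L and PARP12 were smaller, although the differences between genes were not tested. IRF9, the DNA-binding part of ISGF3, went from 0.136 ± 0.0186 to 1.53 ± 0.195 FPKM (2.79, adjusted p = 4.9e-05, limma), but 48.4% of its exon length is shared with another gene model on the same strand, so its level is uncertain. The receptor chain IFNAR1 was lower (-0.20, adjusted p = 0.016, limma). For comparison with TIPARP, 4 genes of the aryl hydrocarbon receptor pathway were tested, of which 1 was higher and 1 lower, with a median of -0.017, a count too small to set against those shares. NQO1, a quinone reductase gene, rose from 47.6 to 58.1 FPKM (0.29, adjusted p = 0.0027, limma), a larger log2 fold change than the 0.17 of TIPARP, and ARNT, the partner of the receptor, fell (-0.20, adjusted p = 0.014, limma). CYP1A1, the best known target of that receptor, was at 2.64 FPKM untreated and 2.72 FPKM after IFNβ (0.046, adjusted p = 0.77, limma).

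The rise of PARP9, DTX3L and PARP14 was compared with that of the genes around them. Within 500 kb of this cluster lie 27 genes, of which 22 were matched to the table and 14 tested. Of the 11 tested genes other than the cluster, limma called none higher and 5 lower at an adjusted p under 0.05, beside 15.2% and 17.5% of all genes, and little can be read from counts over 11 genes. At an unadjusted p under 0.05, 1 was higher and 7 were lower, and voom called 1 higher and 5 lower, the higher gene being PDIA5 (0.15) in each case. The log2 fold change of these 11 ran from -1.09 to 0.73. The highest value was that of CSTA, which did not pass (adjusted p = 0.12, limma). The lowest belonged to LINC02035, a long noncoding RNA gene beyond PARP14, which fell from 1.80 ± 0.0938 to 0.801 ± 0.164 FPKM (-1.09, adjusted p = 0.0016, limma) and was the only DEG among them. MIX23, FAM162A, HSPBAP1 and SLC49A4 were lower by 0.14 to 0.32 on the log2 scale.

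**Figure D5:**
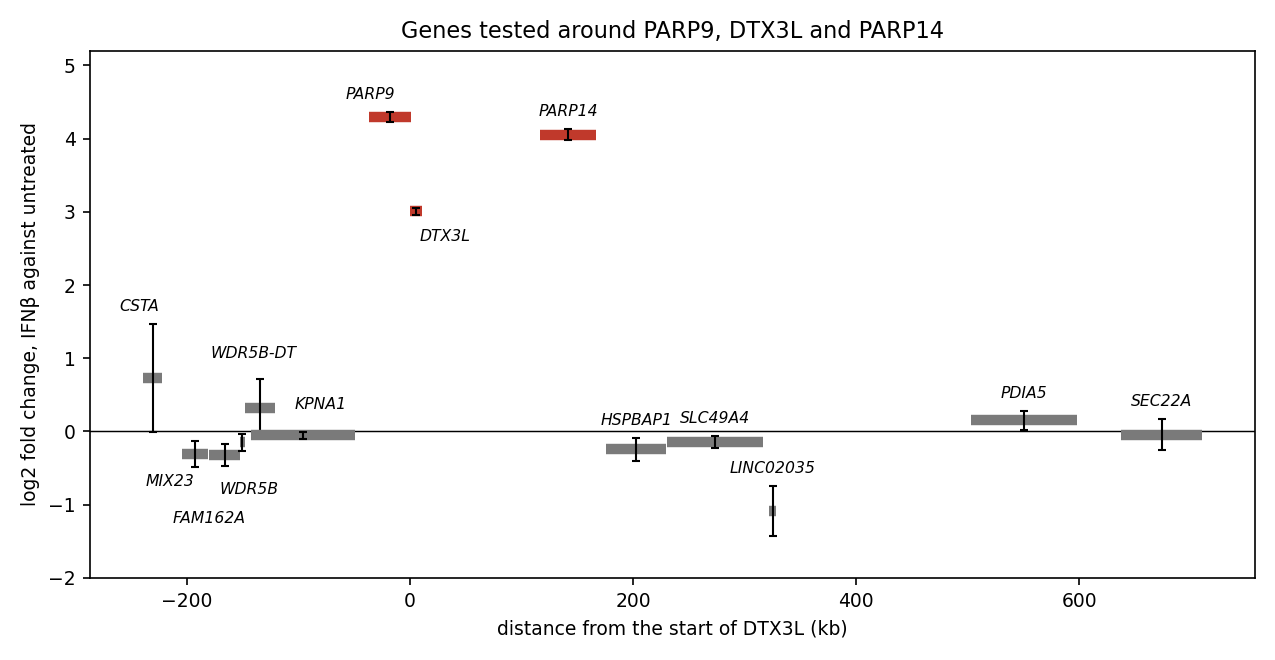
Log2 fold change (IFNβ against untreated, with 95% intervals) of the tested genes within 500 kb of the cluster, placed by distance (kb) from the start of DTX3L, with bars spanning each gene. PARP9, DTX3L and PARP14 stand between 3.005 and 4.30, and all 11 others lie between -1.09 and 0.73.

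For each of the 5 DEGs, the genes with the most similar change were sought among 11996 genes with a mean of at least 1 FPKM. The measure was the Euclidean distance over the 6 libraries of log2(FPKM + 0.1) centred on the untreated mean. The centring removes the level, so a short distance mainly reflects a similar log2 fold change. DTX3L and PARP12 were each other's nearest gene, at a distance of 0.179. After them came TDRD7, a tudor domain protein, at 0.189 from DTX3L and 0.252 from PARP12, and APOBEC3G, a cytidine deaminase that restricts retroviruses, at 0.284 and 0.261. The nearest to PARP14 were SAMHD1 at 0.107, which hydrolyses dNTPs and restricts retroviruses, SAMD9 at 0.119 and the helicase DDX60 at 0.213. Those of PARP10 were APOL1 at 0.130 and the ISG15-conjugating enzymes UBE2L6 at 0.184 and UBA7 at 0.257. Those of PARP9 were TRANK1 at 0.210, the class I antigen gene HLA-B at 0.229 and the guanylate-binding protein gene GBP5 at 0.243. GBP5 was at 0.0438 FPKM untreated, under the pseudocount of 0.1, and at 2.52 FPKM after IFNβ, so its fold on this scale is understated. TRANK1, DDX60 and APOBEC3G were also under 1 FPKM untreated, so these genes and GBP5 passed the filter only through the treated group.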

How the data were processed

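RNA of 6 HT1080 libraries was analysed, 3 untreated and 3 treated with IFNβ. The authors deposited 1 table of FPKM, with a value for every Ensembl gene in every library. The submitters' processing notes name fastp, HISAT2, StringTie and GRCh38. The annotation, the gene lengths and the use of strand are not given in the sources used here. GENCODE release 29 lacks 4436 of the table's IDs, so gene locations may differ from those the authors used.

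Values were compared as log2(FPKM + 0.1) for genes with a mean of at least 0.1 FPKM with limma 3.58.1 (lmFit, eBayes with trend; R 4.3.3), without covariates, and p-values were adjusted by Benjamini-Hochberg over all genes tested. The pseudocount understates the folds of low genes. Whole fragments were recovered from the steps of the FPKM, within 0.0001 of a fragment, for 35302 of 35303 genes above 0, which gave the depths. Within a group, libraries differed by more than sampling noise and were all kept. Ratios between genes were compared by exact two-sided permutation tests. The 10 genes and the gene lists were chosen with earlier results of these data known. Some list genes are not reported here and were left out of the lists' counts. Named genes were the 10 genes, members of the lists and neighbours of the cluster with an adjusted p under 0.05 and a log2 fold change of at least 0.5 in size, and the 3 genes nearest to each DEG among the 10. Other list members and neighbours were named after their values were seen.

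Alternatives were pseudocounts of 0.01 and 1, no filter and a mean of at least 1 FPKM, rescaling to equal totals or by median ratio, quantile normalization, no trend, a replicate block, limma-voom on the recovered fragments and leaving out each library. GENCODE release 29 lengths and ratios with no pseudocount were added after seeing the data. The procedure was tested on simulated data. Python 3.11.15 with pandas 2.3.3, numpy 2.4.6, scipy 1.17.1 and matplotlib 3.10.9 was used for the remaining steps.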

Additional observations from a re-analysis of the deposited data

How the results depend on the processing

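Apart from PARP11, each of the 10 genes kept its direction and its side of an adjusted p of 0.05 (limma) under all 16 other settings. The log2 fold change ran from 3.98 to 4.34 for PARP9, 3.84 to 4.09 for PARP14, 3.34 to 3.64 for PARP10, 2.93 to 3.04 for DTX3L, 2.57 to 3.05 for PARP12, 0.50 to 0.71 for PARP8, 0.15 to 0.20 for TIPARP, -0.13 to -0.057 for PARP2 and -0.28 to -0.24 for PARP1. PARP11 ran from 0.27 to 0.52 over all settings, with 0.27 at a pseudocount of 1 and 0.36 after quantile normalization, both past the threshold. With a library left out it ran from 0.38 to 0.52, and 3 of those 6 values missed the threshold. With a replicate block PARP11 stayed at 0.45 but missed it (adjusted p = 0.066, limma), which left 7 of the 10 genes higher. The cause was not tested. No source says that the replicate numbers pair libraries, and the deviations of same-numbered libraries correlated at 0.053, -0.018 and 0.12. With the block 829 genes were DEGs. All 5 DEGs among the 10 remained so in every setting. The count of DEGs over all genes, 875, was 304 with a pseudocount of 1 and 425 with a mean of at least 1 FPKM, settings that shrink the folds of low genes or test fewer. With the fold threshold added, the genes called higher or lower were 0 in each list other than interferon signalling, where it was 2. With a pseudocount of 1 the log2 ratio of PARP9 to DTX3L rose by 1.05, and that of PARP14 to PARP9 fell by 0.14. The exact tests of 3 against 3 libraries could not pass 0.05 in any setting. PARP11 rested on 148 to 289 fragments per library and passed with limma-voom on the recovered fragments (adjusted p = 0.0012), and PARP15, with at most 12 fragments, was not tested.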

Other observations

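The genes beside the other transferases were also measured. GRINA, a membrane protein gene whose exons overlap those of PARP10, went from 41.4 ± 0.730 to 82.0 ± 2.49 FPKM (S.D., n = 3, log2 fold change 0.98, adjusted p = 2e-06, limma). PLEC, on the other side of PARP10 at a distance of 0.413 kb, was at 98.2 FPKM untreated and 95.6 FPKM after IFNβ (-0.039, adjusted p = 0.19, limma). TEP1, which like PARP4 belongs to the vault particle, lies 7.76 kb from PARP2 and rose from 3.14 to 5.11 FPKM (0.69, adjusted p = 3.9e-05, limma), while PARP2 itself did not pass the test. TIPARP-AS1, which overlaps TIPARP by 37 bases on the opposite strand, was at 0.579 FPKM untreated and 0.557 FPKM after IFNβ and did not pass. SSR3, which lies 119 kb from TIPARP, fell by 0.37 on the log2 scale. LIN9, the nearest tested gene on 1 side of PARP1, was higher (0.23, adjusted p = 0.0084, limma). Nearest tested genes of PARP2 (CCNB1IP1, -0.23), PARP8 (EMB, -0.23) and PARP11 (CRACR2A, -0.24) were lower, at adjusted p of 0.0042, 0.0029 and 0.005 (limma). The remaining neighbours did not pass or were not tested. Across all genes tested, 32.7% passed in either direction.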
